A study of Arabidopsis thaliana with 8 samples.

Results

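The aldehyde dehydrogenase (ALDH) family was followed in imbibed Arabidopsis thaliana seeds on 8 single-colour arrays. Its members were taken as every gene whose only annotated symbol on the array starts with ALDH, with the brightest probe set standing for a gene that had several. There were 8 such genes among 13350 genes with a symbol of their own, and each had 1 probe set among 22746 in all. Of the 16 loci commonly counted in the ALDH superfamily of this plant, the other 8 were not analysed here. All 8 members passed the filter on dim probe sets, which left 13648 probe sets to be tested.

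The 4 groups each held 2 arrays, and all seeds had the Columbia background and had imbibed for 24 h. Seeds of 35S-GSH1, in which GSH1 is overexpressed, were imbibed at 4 °C or at 22 °C, and so were seeds of Col-0, the wild type. The labels describe the 4 °C seeds as vernalized. The 35S promoter of this transgene is a viral promoter that is active in most plant tissues. GSH1 encodes the enzyme of the first committed step of glutathione synthesis, and its own level was not analysed here. Neither the number of transgenic lines nor the origin of the replicates is given in the labels, and p-values therefore reflect only how far these samples scatter, which could be technical scatter. Whole seeds were extracted, and in such bulk samples fewer cells of a type and less RNA per cell cannot be told apart.

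Aldehyde dehydrogenases oxidise aldehydes to carboxylic acids with NAD or NADP as the electron acceptor. Their substrates are reactive products of lipid peroxidation and intermediates of amino acid, polyamine, sugar and phenylpropanoid metabolism. Several plant members are known to be induced by drought, salt and abscisic acid, and ALDH7B4 is known to contribute to the keeping quality of Arabidopsis seeds. Dry seeds store many such transcripts, and these are replaced or kept during imbibition.

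Median deposited intensities ran from 12.3 to 16.2 over the 8 arrays. Over the tested probe sets, replicate arrays correlated with a Pearson's r of 0.962 to 0.972, and arrays of different temperature with one of 0.940 to 0.959. The seed label could be checked with 1 of 14 fixed seed markers, the oleosin OLEO3. Its intensity was 644 to 779 at 4 °C and 478 to 675 at 22 °C. The mean log2 difference of OLEO3 over both genotypes was 0.30 (SE 0.13, limma adjusted p = 0.134), not past the threshold. Of 8 green-leaf markers 2 had a probe set annotated with that gene alone, and neither was at 0. Their summed intensity was 376 to 429 at 4 °C and 262 to 299 at 22 °C, so the temperatures did not overlap. The light-harvesting gene LHCB4.1 made up most of that sum and rose at 4 °C by a log2 difference of 0.53 (SE 0.12, limma adjusted p = 0.00663, n = 4 arrays per temperature), while the Rubisco activase gene RCA had a difference of 0.020 (SE 0.20).

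Among the 8 ALDH genes, 1 changed with the temperature of imbibition, where 16.4% of all tested probe sets did (7.74% lower), and 0 with the genotype, where 0% did. The plastid-type betaine aldehyde dehydrogenase gene ALDH10A8 was lower at 4 °C, at 0.76 times its level at 22 °C over both genotypes. Leaving out any 1 of 7 arrays ended this call, as did 3 other settings. The other 7 did not pass the test. These were ALDH10A9, ALDH7B4, ALDH6B2, ALDH2C4, ALDH22A1, ALDH3F1 and ALDH11A3. Intensities below are quantile normalized, differences are on the log2(intensity + 1) scale, and the test was limma over all tested probe sets with a Benjamini-Hochberg adjusted p below 0.05 as the threshold.

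**Figure D1:**
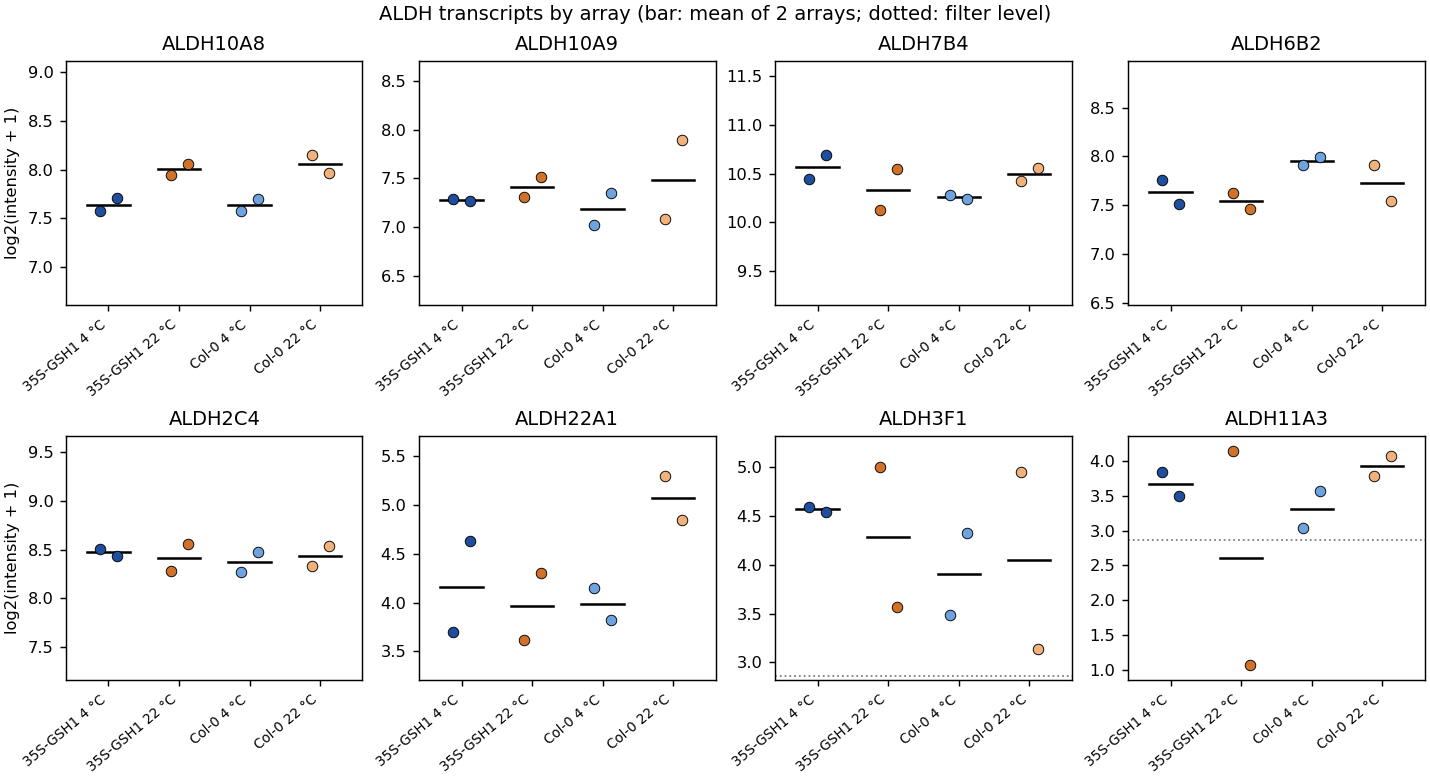
Level of each ALDH transcript on every array, as log2(quantile-normalized intensity + 1), by genotype and temperature of imbibition. Points are arrays and bars are means of 2 arrays. The vertical axes span the same range in 7 panels and a wider one for ALDH11A3. In the ALDH10A8 panel all 4 arrays at 4 °C lie below all 4 at 22 °C, and in the ALDH11A3 panel 1 array of 35S-GSH1 at 22 °C lies far below its replicate.

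ALDH10A8 (AT1G74920) and ALDH10A9 (AT3G48170) are the pair of Arabidopsis enzymes that oxidise aminoaldehydes and betaine aldehyde. ALDH10A8 had intensities of 189.8 and 209 in 35S-GSH1 seeds at 4 °C, against 246 and 266 in 35S-GSH1 seeds at 22 °C. In Col-0 seeds it had 189.5 and 207 at 4 °C, against 284 and 248 at 22 °C. Every array at 4 °C was thus below every array at 22 °C, in both genotypes, and the genotypes nearly coincided at each temperature. The mean log2 difference over both genotypes was -0.39 (SE 0.12, 95% interval -0.65 to -0.13, limma adjusted p = 0.0393, n = 4 arrays per temperature). In that comparison 7.74% of all tested probe sets were called lower and 8.65% higher, and 10.3% had all 4 °C arrays below all 22 °C arrays. The 1 lower call among 8 members is close to that background. The size of the difference was also common, since 67.9% of tested probe sets had a smaller one. ALDH10A8 had the smallest replicate spread of the 8 members, with an SD within groups of 0.10, and 6.87% of tested probe sets had a smaller one.

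Within single genotypes the ALDH10A8 difference was -0.36 in 35S-GSH1 (SE 0.17, limma adjusted p = 0.270) and -0.42 in Col-0 (SE 0.17, limma adjusted p = 0.166), neither past the threshold. The call over both genotypes was lost when any 1 of 7 arrays was left out, with log2 differences of -0.43 to -0.34 and limma adjusted p-values of 0.0605 to 0.134. Without Col-0 22 °C replicate 2 it held, at a log2 difference of -0.44 and a limma adjusted p of 0.0405. It was also lost on the deposited scale (-0.34, limma adjusted p = 0.0798), with arrays centred on their medians (-0.45, limma adjusted p = 0.0697) and without the intensity trend (limma adjusted p = 0.0981). The sum of the green-leaf markers moved with temperature beside it, and its part in the result was not tested.

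ALDH10A9 had intensities of 156 and 153 in 35S-GSH1 seeds at 4 °C, against 157 and 182 at 22 °C. In Col-0 seeds it had 128 and 162 at 4 °C, against 134 and 236 at 22 °C. The Col-0 22 °C replicates differed more from each other than those of its other 3 groups. The mean difference was -0.22 (SE 0.17, 95% interval -0.58 to 0.15, limma adjusted p = 0.436), so ALDH10A9 did not pass the test, and its interval includes the difference seen for ALDH10A8.

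ALDH7B4 (AT1G54100), known as antiquitin and as a stress-induced member that clears aldehydes from lipid peroxidation and lysine breakdown, gave a nearly even level across the temperatures. Its intensity was 1396 and 1648 in 35S-GSH1 seeds at 4 °C and 1114 and 1496 at 22 °C. In Col-0 seeds it was 1243 and 1209.9 at 4 °C and 1373 and 1512 at 22 °C. The mean log2 difference between temperatures was 6.83e-06 (SE 0.12, 95% interval -0.25 to 0.25, limma adjusted p = 1). Behind that mean stood 0.23 in 35S-GSH1 and -0.23 in Col-0 (SE 0.17 each, limma adjusted p = 0.497 and 0.457). In Col-0 both 4 °C arrays lay below both 22 °C arrays, as did those of 24.7% of tested probe sets. The difference between the genotypes' temperature effects, tested as the interaction, was 0.46 (SE 0.23, 95% interval -0.040 to 0.97, limma adjusted p = 0.9996).

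ALDH6B2 (AT2G14170), the mitochondrial methylmalonate-semialdehyde dehydrogenase of valine breakdown, had intensities of 215 and 182 in 35S-GSH1 seeds at 4 °C and 196 and 175 at 22 °C. In Col-0 seeds they were 241 and 255 at 4 °C and 241 and 185 at 22 °C. The temperatures overlapped in each genotype, and the mean difference was 0.16 (SE 0.13, 95% interval -0.12 to 0.45, limma adjusted p = 0.454).

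ALDH2C4 (AT3G24503), also called REF1, oxidises sinapaldehyde and coniferaldehyde to sinapate and ferulate. It varied least of the 8, between 308 and 376 over all arrays, a span of 0.29 on the log2 scale. Its mean difference between temperatures was -0.0046 (SE 0.12, 95% interval -0.27 to 0.26, limma adjusted p = 0.987). The 95% interval lay within a 2-fold change in either direction for 6 of the 8 members, all but ALDH11A3 and ALDH22A1.

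The remaining 3 members were dim, with mean intensities of 11.01 for ALDH11A3, 19.3 for ALDH3F1 and 20.2 for ALDH22A1, against a filter level of 6.26. Their SD within groups was 0.46 to 1.12 on the log2 scale, against 0.10 to 0.32 for the 5 brighter members. The SE of the mean temperature difference was accordingly 0.28 to 0.54 for these 3 and 0.12 to 0.17 for the others. Differences of more than 1 log2 unit between groups occurred only among the dim members, in 4 of their 12 group comparisons, against 0 of 20 for the brighter ones. None of these differences passed the test.

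**Figure D2:**
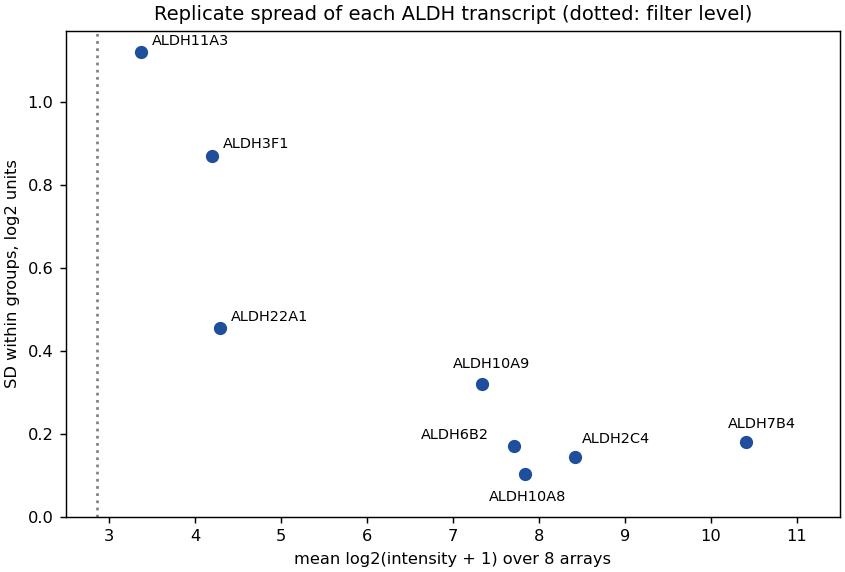
Standard deviation within groups, in log2 units, against the mean log2(intensity + 1) over 8 arrays for each ALDH transcript. The dotted line is the filter level. The 3 members nearest to it have SDs of 0.46 to 1.12, and the other 5 lie between 0.10 and 0.32.

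ALDH22A1 (AT3G66658), whose substrates are little known, had the highest levels in Col-0 seeds at 22 °C. Its intensities were 11.95 and 23.8 in 35S-GSH1 seeds at 4 °C and 11.3 and 18.7 at 22 °C. In Col-0 seeds they were 16.75 and 13.1 at 4 °C and 38.3 and 27.75 at 22 °C. Both Col-0 arrays at 22 °C exceeded all 6 other arrays, which overlapped one another. The temperature difference was 0.20 in 35S-GSH1 (SE 0.39, limma adjusted p = 0.840) and -1.09 in Col-0 (SE 0.39, 95% interval -1.92 to -0.25, limma adjusted p = 0.116). The interaction was 1.29 (SE 0.55, 95% interval 0.11 to 2.47, unadjusted p = 0.0345, limma adjusted p = 0.9996). None of these passed the threshold.

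By the likeness of its profile over the 8 arrays, measured as the root mean square difference of mean-centred log2 values, ALDH22A1 stood closest to AT1G77230 (0.26 log2 units) among 7526 genes. It was followed by AT1G55915, AT3G24670 and AT4G07920 (0.29 each) and by SQN (0.29), which encodes a cyclophilin. The median over all genes was 0.63. The nearest member of its own family, ALDH10A8, was at 0.47 and ranked 519th, and the farthest, ALDH11A3, was at 1.09. This measure depends on the size of the differences between arrays as well as on their pattern. It also takes in replicate scatter, and the SD within groups of ALDH22A1 was 0.46.

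ALDH3F1 (AT4G36250), a member that acts on aliphatic aldehydes, had intensities of 23.1 and 22.4 in 35S-GSH1 seeds at 4 °C and 31.1 and 10.8 at 22 °C. In Col-0 seeds they were 10.2 and 19.1 at 4 °C and 30.0 and 7.81 at 22 °C. At 22 °C the replicates of each genotype differed by more than 1 log2 unit (1.44 in 35S-GSH1 and 1.81 in Col-0), and both temperature comparisons overlapped. The mean difference was 0.075 (SE 0.40, 95% interval -0.78 to 0.93, limma adjusted p = 0.929).

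ALDH11A3 (AT2G24270), the non-phosphorylating glyceraldehyde-3-phosphate dehydrogenase that makes NADPH in the cytosol, had intensities of 13.3 and 10.3 in 35S-GSH1 seeds at 4 °C and 16.75 and 1.09 at 22 °C. In Col-0 seeds they were 7.175 and 10.9 at 4 °C and 12.8 and 15.8 at 22 °C. One array, 35S-GSH1 22 °C replicate 2, was far below its replicate, and 99.2% of tested probe sets had a smaller SD within groups. The temperature difference was 1.06 in 35S-GSH1 (SE 0.77, limma adjusted p = 0.501) and -0.63 in Col-0 (SE 0.77, limma adjusted p = 0.695). Without that array the difference in 35S-GSH1 was -0.48, and the mean over both genotypes was -0.55 against 0.22 with it.

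**Figure D3:**
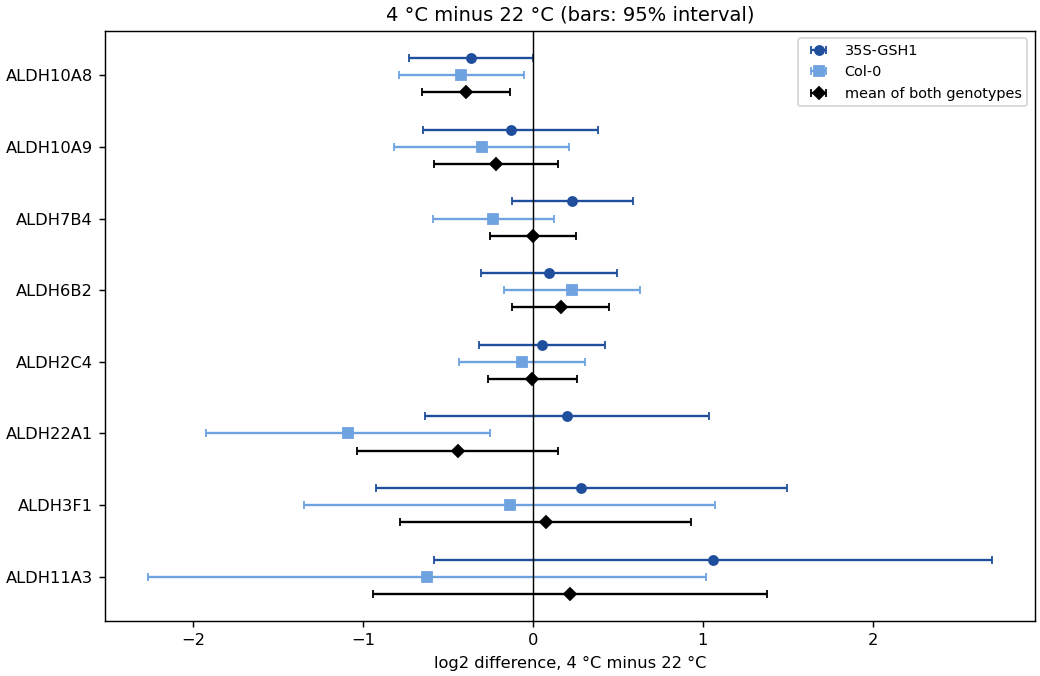
Log2 difference of each ALDH transcript, 4 °C minus 22 °C, in 35S-GSH1 seeds, in Col-0 seeds and as the mean of both genotypes, with 95% intervals from limma. The mean difference of ALDH10A8, at -0.39, has an interval of -0.65 to -0.13 and is the only one past the threshold. The intervals of ALDH22A1, ALDH3F1 and ALDH11A3 are the widest.

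Taken as a list, the 8 members had a median log2 temperature difference of -0.0023 over both genotypes, against 0.0056 for all tested probe sets, with 4 of 8 members above 0, where 50.7% of all tested probe sets were. In 35S-GSH1 the median was 0.15, with 6 members above 0 (50.4% of all tested probe sets), and 0 of 8 were called, where 5.58% of all tested probe sets were. In Col-0 the median was -0.27, with 7 members below 0 (49.4% of all tested probe sets), and 0 of 8 were called, where 6.98% of all tested probe sets were. At an unadjusted p under 0.05 there were 0 members in 35S-GSH1, where 18.8% of all tested probe sets were, and 2 in Col-0, where 21.8% were. These 2 were ALDH10A8 and ALDH22A1. Both Col-0 arrays at 4 °C lay below both at 22 °C for 4 members (ALDH10A8, ALDH11A3, ALDH22A1 and ALDH7B4), as they did for 24.7% of all tested probe sets. In 35S-GSH1 this held for 2 members, ALDH10A8 and ALDH10A9, and for 24.8% of all tested probe sets. For ALDH10A9 it did not hold in the deposited intensities. The interaction was above 0 for 7 of the 8 members and 49.9% of all tested probe sets, with medians of 0.30 and -0.00062. It was called for 0 of 8 members and 0% of all tested probe sets by limma. At an unadjusted p under 0.05 the interaction counted 1 member, ALDH22A1, and 3.32% of all tested probe sets. The 4 temperature and genotype comparisons share arrays, so their directions are not independent of one another. All members were read on the same 8 arrays, so their signs are not independent either. Some signs also rested on 1 array. Without 35S-GSH1 22 °C replicate 2, ALDH11A3 (-0.48) and ALDH3F1 (-0.43) were below 0 in 35S-GSH1. Without Col-0 22 °C replicate 2, ALDH10A9 (0.10) and ALDH2C4 (0.040) were above 0 in Col-0. The interaction changed sign with 1 array left out for ALDH10A8, ALDH2C4, ALDH3F1, ALDH10A9 and ALDH6B2.

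The genotype comparison set 35S-GSH1 seeds against Col-0 seeds at each temperature, and the level of GSH1 itself was not analysed here. No member passed the test, as limma called 0% of all tested probe sets at 4 °C and 0% at 22 °C. At 4 °C 0 members had an unadjusted p under 0.05, where 3.22% of tested probe sets did, and at 22 °C it was 1 member, where 5.71% did. That member was ALDH22A1, with a log2 difference of -1.11 between 35S-GSH1 and Col-0 seeds at 22 °C (SE 0.39, 95% interval -1.94 to -0.27, unadjusted p = 0.0130, limma adjusted p = 0.853), from the intensities given above. At 4 °C its difference was 0.18 (SE 0.39).

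Among the brighter members, the genotype differences were within 0.32 log2 units at both temperatures. ALDH6B2 at 4 °C had 215 and 182 in 35S-GSH1 seeds and 241 and 255 in Col-0 seeds, a difference of -0.32 (SE 0.19, 95% interval -0.72 to 0.079, limma adjusted p = 1). ALDH7B4 at 4 °C had 1396 and 1648 in 35S-GSH1 seeds and 1243 and 1209.9 in Col-0 seeds, a difference of 0.31 (SE 0.17, 95% interval -0.050 to 0.66, limma adjusted p = 1). In both genes the genotypes did not overlap at 4 °C, and neither did those of ALDH3F1 (0.66, SE 0.56). Groups did not overlap for 32.3% of tested probe sets in that comparison, and the 3 of 8 members are near that share. ALDH2C4 had 0.099 at 4 °C and -0.018 at 22 °C (SE 0.17 each), and ALDH10A8 had 0.0049 and -0.053 (SE 0.17 each). ALDH11A3 had the widest intervals at both temperatures, and at 22 °C a difference of -1.32 (SE 0.77, limma adjusted p = 0.874) that was 0.22 without 35S-GSH1 22 °C replicate 2.

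**Figure D4:**
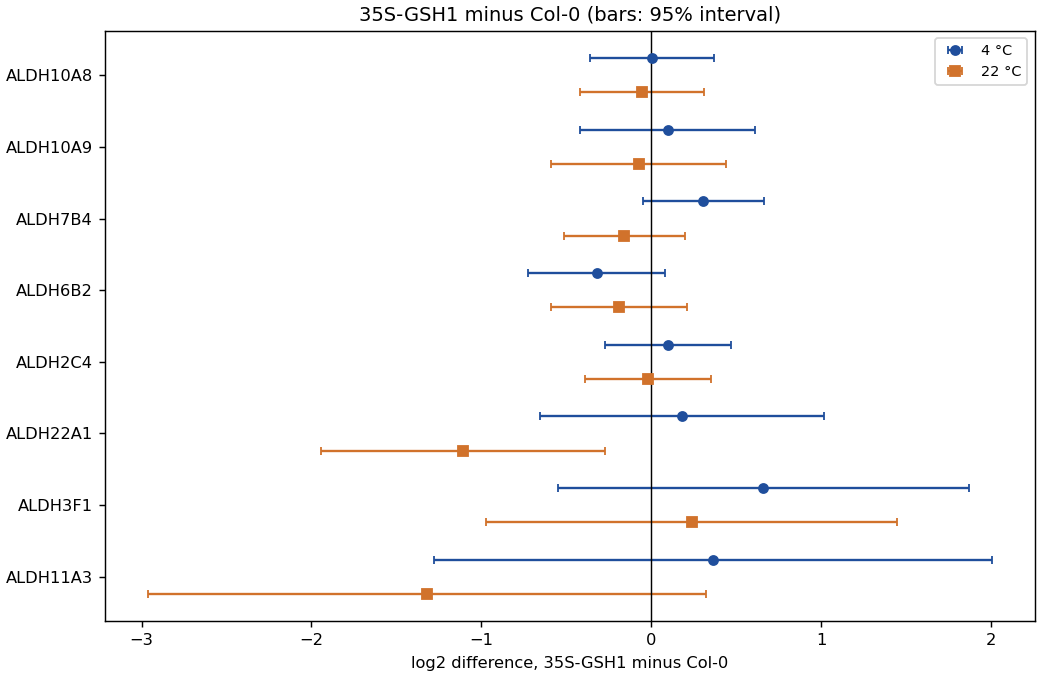
Log2 difference of each ALDH transcript, 35S-GSH1 minus Col-0, at 4 °C and at 22 °C, with 95% intervals from limma. The interval of ALDH22A1 at 22 °C, around -1.11, lies below 0 but its adjusted p is 0.853, and all other intervals include 0.

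In the order of their group means, ALDH10A8 and ALDH10A9 both ran from Col-0 22 °C, the highest, through 35S-GSH1 22 °C and 35S-GSH1 4 °C to Col-0 4 °C, the lowest. For ALDH10A8 the only neighbours in this order whose arrays did not overlap were 35S-GSH1 22 °C and 35S-GSH1 4 °C. The same neighbours were the only ones for ALDH10A9, but there the gap was narrow, at 155.7 against 156.9. In the deposited intensities these 2 groups overlapped for ALDH10A9, with 167.5 and 152.9 at 4 °C and 149.7 and 180.4 at 22 °C. ALDH22A1 and ALDH11A3 shared the order Col-0 22 °C, 35S-GSH1 4 °C, Col-0 4 °C and 35S-GSH1 22 °C. In it Col-0 22 °C stood clear of the next group for ALDH22A1, while all neighbours overlapped for ALDH11A3. The last place of 35S-GSH1 22 °C for ALDH11A3 rested on replicate 2 (1.09), since replicate 1 (16.75) was above all other arrays. For ALDH22A1 the last 2 groups were nearly level, at mean log2 values of 3.96 in 35S-GSH1 at 22 °C and 3.98 in Col-0 at 4 °C, and their mean intensities, 15.01 and 14.9, had the opposite order. ALDH2C4 and ALDH7B4 were highest in 35S-GSH1 at 4 °C and lowest in Col-0 at 4 °C, with every neighbour overlapping. For ALDH6B2 the order was Col-0 4 °C, Col-0 22 °C, 35S-GSH1 4 °C and 35S-GSH1 22 °C, and for ALDH3F1 it was 35S-GSH1 4 °C, 35S-GSH1 22 °C, Col-0 22 °C and Col-0 4 °C, again with overlap between neighbours.

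Genes of the pathways that supply or share the substrates of these enzymes were set beside them. Of 75 genes in 8 lists, 22 could be tested, and over both genotypes 3 rose and 1 fell at 4 °C. In that comparison 16.4% of all tested probe sets were called, 8.65% higher and 7.74% lower. The lists for the GABA shunt and for phenylpropanoid and sinapate synthesis had 0 tested genes. No list gene was called for genotype or interaction.

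In fermentation, acetate use and the glyoxylate cycle, 4 of 10 genes could be tested. Of these 4, 2 rose, where 8.65% of all tested probe sets were called higher. The lists were chosen with earlier results of these data known, so this count was no independent test. PDC2, a pyruvate decarboxylase, which makes acetaldehyde from pyruvate, had intensities of 963 and 1138 in 35S-GSH1 seeds at 4 °C, against 573 and 604 at 22 °C. In Col-0 seeds PDC2 had 1030.2 and 1256 at 4 °C, against 571 and 584 at 22 °C. All arrays at 4 °C exceeded all at 22 °C, and the mean log2 difference was 0.90 (SE 0.11, limma adjusted p = 0.000119). PDC2 was also called in 35S-GSH1 (0.83, limma adjusted p = 0.00748) and in Col-0 (0.98, limma adjusted p = 0.00257), although in 35S-GSH1 the limma adjusted p was 0.102 without 4 °C replicate 2 and 0.0674 without 22 °C replicate 1. The PDC2 call in 35S-GSH1 was also lost with median-centred arrays (limma adjusted p = 0.0601) and without the intensity trend (limma adjusted p = 0.0989), and the one in Col-0 without the intensity trend (limma adjusted p = 0.0641). AT4G17260 of the same list had 0.87 (SE 0.21, limma adjusted p = 0.0116), with 46.9 and 25.5 in 35S-GSH1 seeds at 4 °C, against 29.2 and 23.1 at 22 °C. In Col-0 seeds it had 47.5 and 43.7 at 4 °C, against 16.8 and 17.9 at 22 °C. Without 35S-GSH1 4 °C replicate 1 its call over both genotypes was lost (0.66, limma adjusted p = 0.0711). Its call in Col-0 (1.34, limma adjusted p = 0.0158) was lost without any 1 of the 4 Col-0 arrays, with a limma adjusted p of up to 0.0965, and also with no filter (limma adjusted p = 0.0565) and without the intensity trend (limma adjusted p = 0.0811). Acetyl-CoA synthetase ACS, which activates acetate, had 0.18 (SE 0.13) and isocitrate lyase ICL, an enzyme of the glyoxylate cycle, had -0.088 (SE 0.089), and neither passed the test.

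**Figure D5:**
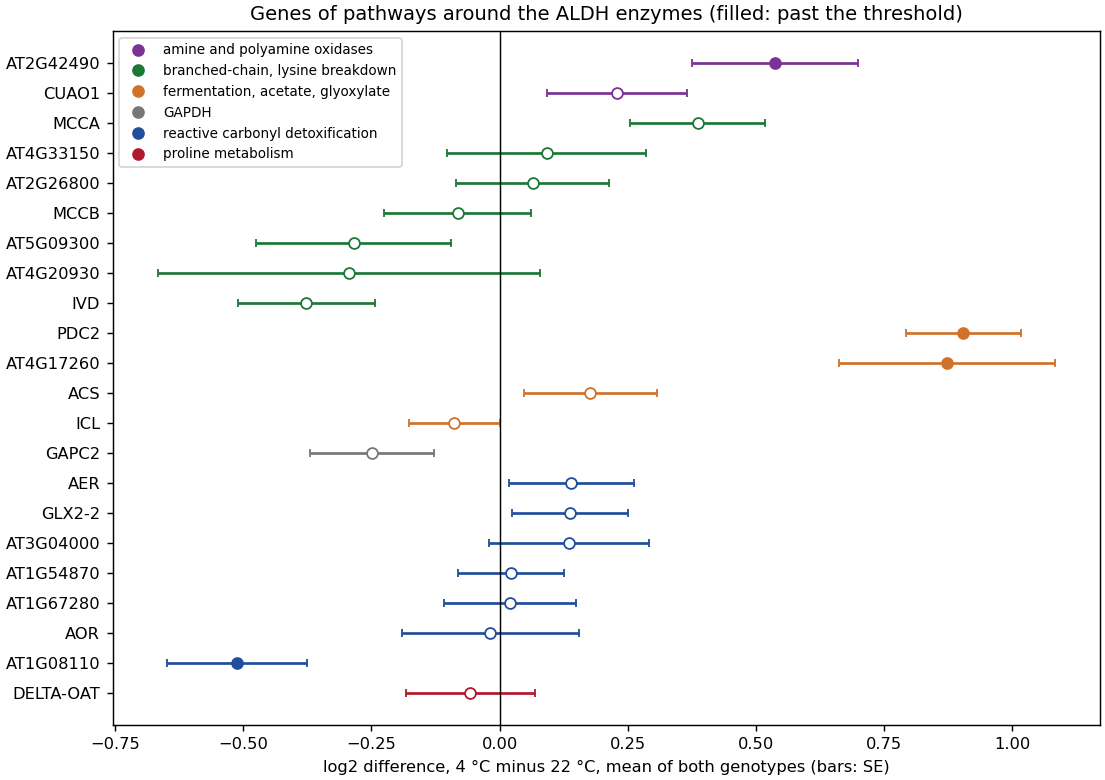
Log2 difference between 4 °C and 22 °C, as the mean of both genotypes, for 22 tested genes of the pathway lists, coloured by list. Bars are standard errors and filled points are genes past the threshold. PDC2 (0.90), AT4G17260 (0.87) and AT2G42490 (0.54) lie above 0 and AT1G08110 (-0.51) below.

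The branched-chain amino acid and lysine breakdown list, to which ALDH6B2 and ALDH7B4 are linked, had a median of -0.082. Of its 7 tested genes 0 passed the threshold, where 16.4% of all tested probe sets did. MCCA, a subunit of methylcrotonyl-CoA carboxylase, had 0.39 (SE 0.13, limma adjusted p = 0.0600), and passed the threshold on the deposited scale (limma adjusted p = 0.0256) and with the filter at the 60th percentile (limma adjusted p = 0.0441). Isovaleryl-CoA dehydrogenase IVD had -0.38 (SE 0.13, limma adjusted p = 0.0721), and the loci AT5G09300 and AT4G20930 had -0.28 and -0.29. Of the 7 tested genes of other reactive carbonyl detoxification 1 was called lower, where 7.74% of all tested probe sets were. This gene, AT1G08110, fell by 0.51 (SE 0.14, limma adjusted p = 0.0202). Its intensities were 282 and 203 in 35S-GSH1 seeds at 4 °C, against 415 and 401 at 22 °C, and 282 and 299 in Col-0 seeds at 4 °C, against 396 and 305 at 22 °C. AT1G08110 was also called lower in 35S-GSH1 alone (-0.76, limma adjusted p = 0.0340). The call over both genotypes was lost without any 1 of 5 arrays, with a limma adjusted p of up to 0.103, and without the intensity trend (limma adjusted p = 0.0945), and that in 35S-GSH1 without any 1 of 3, with one of up to 0.298. The call in 35S-GSH1 was lost as well on the deposited scale (-0.71, limma adjusted p = 0.0530) and without the intensity trend (limma adjusted p = 0.163). The other named genes of this list, the alkenal reductase AER, the glyoxalase GLX2-2 and AT3G04000, had 0.14 each.

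Products of the amine oxidase genes supply aminoaldehydes to enzymes of the ALDH10A8 type. Of the 2 tested ones 1 was called higher, where 8.65% of all tested probe sets were. This gene, AT2G42490, rose by 0.54 (SE 0.16, limma adjusted p = 0.0356). Leaving out any 1 of 6 arrays ended this call, with a limma adjusted p of up to 0.174, and so did moderation without the intensity trend (limma adjusted p = 0.121) and the fit with no filter (limma adjusted p = 0.0575). Its intensities were 172 and 105 in 35S-GSH1 seeds at 4 °C, against 96.2 and 108 at 22 °C, and 179 and 149 in Col-0 seeds at 4 °C, against 98.1 and 105 at 22 °C. CUAO1, a copper amine oxidase, had 0.23 (SE 0.14, limma adjusted p = 0.286). The only tested gene of proline metabolism, the ornithine aminotransferase DELTA-OAT, had -0.057 (SE 0.13). The phosphorylating glyceraldehyde-3-phosphate dehydrogenase GAPC2, which acts on the same substrate as ALDH11A3, had -0.25 (SE 0.12, limma adjusted p = 0.188).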

How the data were processed

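The authors deposited 1 table with a probe-set intensity per array on a linear scale. GCOS, software of the array's maker, is listed per the submitters' processing notes, with its role, version, summary method and scaling not given in the sources used here. Detection calls were not used, and 0 probe sets were the manufacturer's controls. The trimmed mean of an array lay up to 9.71% from the median array, so arrays were quantile normalized, and a shift of most transcripts one way would not show. Values were log2(intensity + 1), and probe sets with a mean under the 40th percentile (2.86 on the log2 scale) were left out. limma 3.58.1 in R 4.3.3 was fitted to 8 arrays with 1 coefficient per group and 4 residual degrees of freedom. Moderation used an intensity trend (9.93 prior degrees of freedom), and two-sided tests had Benjamini-Hochberg adjustment over 13648 probe sets. The procedure was run on simulated data with independent scatter and planted differences larger than that of ALDH10A8. These data covered neither effects shared by arrays nor a difference as small as that one. Precision is limited by the number of arrays, and 95% intervals reached a median of 0.37 log2 units to either side for the mean temperature difference and 0.52 between 2 groups.

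Names came from the platform's annotation, in which 13513 probe sets had 1 gene, 503 several and 8730 no listed gene, and 13436 of the first were matched to RefSeq (TAIR10.1). No coordinates or sequences are given. Members and lists were chosen with earlier results of these data known. From each list were named up to 4 tested genes with the smallest adjusted p for temperature, and any gene called. The profile likeness was computed for the member with the largest mean temperature difference. Alternatives were a pseudocount of 16, other scalings, no filter or the 60th percentile, moderation without the trend or robust, only the 4 arrays of a comparison, the replicate number as a block, and each array left out.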

Additional observations from a re-analysis of the deposited data

How the results depend on the processing

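Quantile normalization, few arrays and dim signals limit these results: the SE of the mean temperature difference was 0.28 to 0.54 log2 units for the 3 dim members. The number of ALDH genes called over both genotypes was 1, and 0 on the deposited scale, with median-centred arrays and without the intensity trend, and it was 0 to 1 when 1 array was left out. In the other 5 comparisons it was 0 under every setting run. Probe sets called numbered 2237 over both genotypes, 762 in 35S-GSH1 and 953 in Col-0. Without the intensity trend these counts were 1153, 117 and 153, and with 1 array left out they were 1538 to 2083, 257 to 792 and 427 to 852. When 1 array was left out, the genotype counts were 0 to 1 at 4 °C and 0 to 1 at 22 °C, and with a pseudocount of 16 the count at 22 °C was 2. The share called higher over both genotypes was 52.7%, against 68.9% on the deposited scale (where the median of all probe sets was 0.11) and 49% with median-centred arrays. In 35S-GSH1 it was 50.1%, against 68.4% (609 higher and 281 lower) and 39.3% (218 and 337), and in Col-0 52.7%, against 64.7% (642 and 351) and 48.4%.

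With the replicate number as a block, 3020 probe sets were called over both genotypes, 1386 in 35S-GSH1, 1692 in Col-0 and 1 for genotype at 22 °C. Deviations of same-numbered arrays correlated between groups with r of 0.051 to 0.14, all positive. In every group replicate 1 had a higher median deposited intensity than replicate 2. The labels do not say whether same-numbered arrays form pairs. The main fit was made without the block and so does not allow for an effect that same-numbered arrays share. The number of ALDH genes called with the block was the same in all 6 comparisons. MCCA (limma adjusted p = 0.0232), IVD (limma adjusted p = 0.0429) and the seed marker OLEO3 (limma adjusted p = 0.0449) passed the threshold over both genotypes with the block.

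Signs of differences that were not called turned under some settings. Over both genotypes ALDH11A3 was -0.023 and ALDH7B4 -1.27e-06 with a pseudocount of 16, ALDH2C4 was 0.029 on the deposited scale, and ALDH7B4 was -0.077 with median-centred arrays. Also with median-centred arrays, ALDH2C4 was -0.044 for temperature in 35S-GSH1 and 0.044 for genotype at 22 °C, and on the deposited scale ALDH3F1 was 0.024 for temperature in Col-0. The cause was not tested.

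With 1 array left out, values for temperature over both genotypes that crossed 0 were ALDH2C4 -0.075 to 0.066, ALDH7B4 -0.11 to 0.11, RCA -0.13 to 0.17, ALDH11A3 -0.55 to 0.99, ALDH3F1 -0.38 to 0.53, AT3G04000 -0.0039 to 0.28, AT4G20930 -0.83 to 0.24 and DELTA-OAT -0.16 to 0.049. Values for temperature in 35S-GSH1 that crossed 0 were ALDH6B2 -0.023 to 0.21, AT4G17260 -0.026 to 0.82, ALDH22A1 -0.26 to 0.67, ALDH2C4 -0.087 to 0.19, ALDH11A3 -0.48 to 2.61 and ALDH3F1 -0.43 to 1.02. Values for temperature in Col-0 that crossed 0 were ALDH2C4 -0.17 to 0.040, ALDH3F1 -1.05 to 0.78 and ALDH10A9 -0.70 to 0.10. Values for genotype at 4 °C that crossed 0 were ALDH10A8 -0.062 to 0.073, ALDH22A1 -0.28 to 0.65, ALDH10A9 -0.067 to 0.27 and ALDH2C4 -0.0026 to 0.20. Values for genotype at 22 °C that crossed 0 were ALDH10A8 -0.15 to 0.044, ALDH10A9 -0.47 to 0.33, ALDH2C4 -0.16 to 0.12, ALDH3F1 -0.67 to 1.15, ALDH7B4 -0.37 to 0.055, ALDH11A3 -2.88 to 0.22 and ALDH6B2 -0.38 to 0.00037. Values for the interaction that crossed 0 were ALDH10A8 -0.039 to 0.15, ALDH2C4 -0.024 to 0.26, ALDH3F1 -0.49 to 1.33, ALDH10A9 -0.23 to 0.57 and ALDH6B2 -0.32 to 0.055.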
